A study of Mus musculus with 4 samples.

Results

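The genes described here encode the hemidesmosome and the laminins it grips, and the question was whether the lower Col17a1 and Lama3 signal in miR-203-induced mouse skin extended to the partners of these proteins. The members were every probe set annotated to exactly 1 gene with the symbol Col17a1, Itga6, Itgb4, Dst, Plec, Cd151, Lama3, Lamb3 or Lama5, which gave 23 probe sets for 9 genes, out of 45037 probe sets on the array. Of these, 21 passed the filter on low values and at least 1 probe set passed for each of the 9 genes. The induced pups carried a doxycycline-responsive miR-203 transgene (TRE-miR-203), the doxycycline-dependent activator rtTA under the keratin 14 promoter (K14-rtTA), and a nuclear green fluorescent protein under the same promoter (K14-H2BGFP). The control littermates, labelled WT, carried TRE-miR-203 and K14-H2BGFP without K14-rtTA, so both groups held the miR-203 transgene and the reporter, and effects of the activator and of miR-203 cannot be told apart. All were of the FVB background and were harvested at postnatal day 4, 24 h after a doxycycline injection, and the skin cells were sorted by flow cytometry with a gate not given in the sources used here. The keratin 14 promoter is active in the basal layer of the epidermis and in the outer root sheath of the follicle, so the transgene is driven in the cell type that builds hemidesmosomes. There were 2 induced and 2 control arrays, labelled as biological replicates, and that number limits the precision of every value.

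Hemidesmosomes rivet basal keratinocytes to the basement membrane. The integrin alpha 6 beta 4 and the transmembrane collagen XVII span the cell membrane, the plakins plectin and BP230 tie them to keratin filaments inside the cell, and the tetraspanin CD151 associates with the integrin. Outside the cell the integrin binds laminin-332, a trimer that holds the chains alpha 3 and beta 3, and in humans loss of several of these proteins causes blistering skin disease. Laminin chain alpha 5, encoded by Lama5, belongs to other laminins of the same basement membrane.

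The mature sequence of miR-203-3p is shown because its seed, the stretch that pairs with target transcripts, defines the treatment. It lies at chr12:112130927-112130948 on the plus strand of build GRCm38.p6, the sequence is from RefSeq, and the capitals mark the seed, bases 2 to 8. The mature microRNA itself was not measured here, so its induction was not checked.
miR-203-3p: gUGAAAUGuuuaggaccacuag

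Promoter sequences from RefSeq (build GRCm38.p6) were matched for 5 of the 9 genes, in 8 windows, and 3 of these are shown as the 250 bases before the annotated start. The Col17a1 window is given because this gene had the lowest difference of the 9. It lies at chr19:47692043-47692292 on the minus strand and held the letters TATAAA at 2 places, beginning 140 and 91 bases before the start. The search covered both strands, and 12.4% of the 32851 windows of the same length held the same letters. The Dst windows, chr1:34011345-34011594 and chr1:34160010-34160259, both on the plus strand, are given because Dst has 2 annotated starts here, 148665 bases apart, and because its probe sets differed in direction. The letters TATAAA, shown in capitals, occurred in 1 of the 8 member windows, and the letters TGACTCA, searched on both strands, in 0 of the 8 against 4.46% of all windows. A match or its absence describes these letters in these windows only.
Col17a1: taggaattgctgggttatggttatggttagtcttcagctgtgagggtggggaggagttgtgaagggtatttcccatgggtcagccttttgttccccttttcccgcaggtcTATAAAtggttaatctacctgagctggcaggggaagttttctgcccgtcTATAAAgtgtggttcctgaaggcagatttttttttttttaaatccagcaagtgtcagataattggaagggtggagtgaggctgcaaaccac
Dst first start: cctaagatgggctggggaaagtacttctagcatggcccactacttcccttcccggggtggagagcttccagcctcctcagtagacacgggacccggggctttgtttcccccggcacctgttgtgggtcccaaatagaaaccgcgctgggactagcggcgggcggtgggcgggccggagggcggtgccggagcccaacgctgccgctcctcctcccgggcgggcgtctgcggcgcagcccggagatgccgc
Dst second start: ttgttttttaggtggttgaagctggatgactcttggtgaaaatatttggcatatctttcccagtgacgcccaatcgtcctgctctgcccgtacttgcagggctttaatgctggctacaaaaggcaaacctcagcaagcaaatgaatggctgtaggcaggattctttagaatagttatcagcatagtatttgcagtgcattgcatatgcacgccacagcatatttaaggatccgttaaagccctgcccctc

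The 4 arrays had medians of 4.79 and 4.76 (induced) and 4.74 and 4.79 (control) as deposited log2 values. Over the 27022 probe sets kept, Pearson's r across probe sets, which are not independent replicates, was 0.994 between the induced arrays and 0.995 between the control arrays, against 0.991 to 0.993 between groups. Induced replicate 1 stood apart in sex-linked transcripts, with Xist at 5.86 against 11.2 in induced replicate 2 and 10.6 and 10.8 in the controls, and with the Y-linked gene Eif2s3y at 9.38 against 2.72 in induced replicate 2 and 2.82 and 2.52 in the controls. Results are therefore also given without that array. The cells carried the markers of the epidermis, with the basal keratin Krt14 at log2 values of 13.96 to 14.13 and the suprabasal keratin Krt10 at 14.19 to 14.32. Of the endothelial markers, 5 of 6 lay under the filter level of 4.17 on the log2 scale, as did 3 of 6 for dermal fibroblasts and 3 of 6 for skeletal muscle. The 5 melanocyte markers were all above it, with mean log2 levels of 8.23 to 10.9, as were the 5 immune cell markers, at 5.88 to 9.99, so RNA of both cell types was present in the sorted cells.

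Col17a1 encodes collagen XVII, the transmembrane collagen of the hemidesmosome. It had log2 values of 9.37 and 9.18 in the induced arrays, against 9.95 and 10.01 in the control arrays. Both induced arrays were below both controls, with a gap of 0.58 between the nearest arrays. The difference in mean log2 value was -0.71 ± 0.11 (SE of the limma fit, n = 2 and 2), which is 1.63-fold lower, with a 95% interval of -0.98 to -0.44 and an adjusted p of 0.188 in limma. The difference was lower than that of all but 0.337% of the probe sets kept. It did not pass the threshold of an adjusted p under 0.05, over all 27022 probe sets. When the variance prior followed the mean level and was robust to outlying variances, the same difference passed in limma, with an adjusted p of 0.0305, among 126 of 27022 probe sets called (0.466%). Col17a1 has a single probe set on the array, so no second one could be set beside it.

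Lama3 encodes the alpha 3 chain, the part of laminin-332 that the integrin binds. It had log2 values of 8.57 and 8.83 in the induced arrays, against 9.17 and 9.28 in the control arrays. These groups did not overlap either, and the nearest arrays were 0.34 apart. The difference was -0.53 ± 0.12 (SE), which is 1.44-fold lower, with a 95% interval of -0.83 to -0.22 and an adjusted p of 0.285 in limma. A second Lama3 probe set lay under the filter, at 3.70 and 4.03 in the induced arrays and 3.72 and 3.73 in the controls, and gives no check of the first. Without induced replicate 1 the difference was -0.40 for Lama3 and -0.80 for Col17a1.

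Of the 9 members, taken by brightest probe set, 4 had a lower and 5 a higher mean in the induced arrays. A list of basal keratinocyte markers outside the members was lower on the same arrays. All 5 of 5 markers, Krt5, Krt14, Krt15, Trp63 and Cdh3, had both induced values below both control values, with a median difference of -0.30, where 19.3% of all 13489 genes were separated in that direction. For Cdh3 the nearest arrays were only 0.0014 apart. The summed linear signal of the 5 was 36663 and 35485 in the induced arrays, against 40900 and 41087 in the controls. Of the suprabasal markers Krt1, Krt10, Ivl, Flg and Lor, all but Lor, 4 of 5, were separated in the same direction, with a median difference of -0.07. For Krt10 the nearest arrays were only 0.0030 apart. The summed signal of the 5 suprabasal markers was 74973 and 71338 in the induced arrays against 76469 and 75756 in the controls. The suprabasal markers had mean log2 levels of 12.90 to 14.27, near the top of the range of these arrays. The basal markers spanned 7.35 to 14.05. Whether the level of a marker affected the size of its difference was not tested, so the median differences of the basal and suprabasal lists cannot be set against each other. The part of the basal and suprabasal markers in the Col17a1 and Lama3 differences was not tested. In sorted bulk cells, fewer cells of a type and less RNA per cell cannot be told apart.

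**Figure D1:**
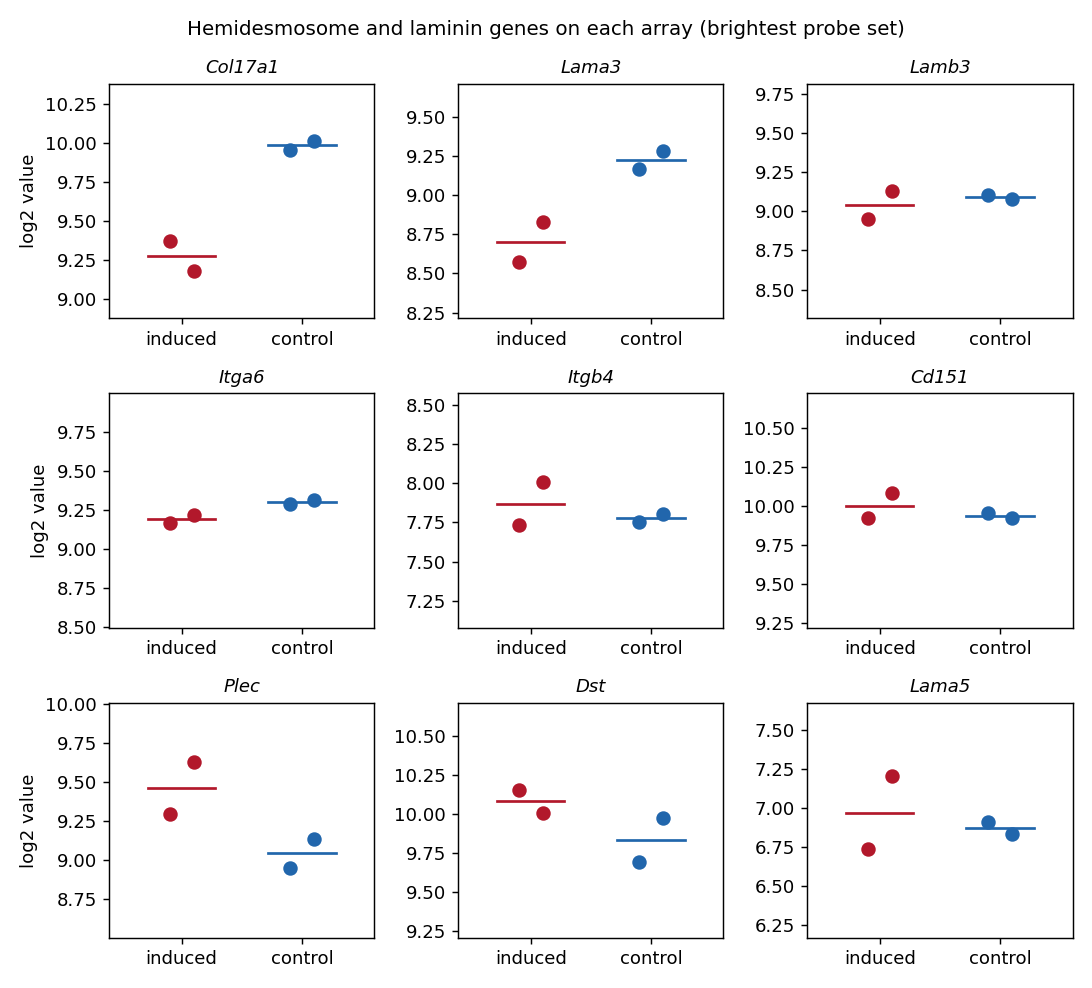
Log2 values of the brightest probe set of each of the 9 genes on each array (y axis, each panel spanning the same log2 range), with induced arrays in red and control arrays in blue, points for arrays and bars for group means. The groups are well apart for Col17a1 (9.37 and 9.18 induced, 9.95 and 10.01 control) and Lama3, both lower in the induced arrays. They lie close together or overlap for Lamb3, Itga6, Itgb4, Cd151 and Lama5. Plec is higher in the induced arrays (9.29 and 9.63 induced, 8.95 and 9.13 control), as is Dst, with a gap of only 0.03.

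Lamb3, the beta 3 chain that assembles with alpha 3 in laminin-332, did not share this separation. Its log2 values were 8.95 and 9.13 in the induced arrays, against 9.11 and 9.08 in the control arrays. The induced arrays lay on either side of the controls. The difference was -0.05 ± 0.11 (SE), with a 95% interval of -0.32 to 0.21 and an adjusted p of 0.938 in limma.

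Itga6 encodes the alpha 6 integrin subunit. Its brightest probe set had log2 values of 9.16 and 9.21 in the induced arrays, against 9.29 and 9.31 in the control arrays. The groups did not overlap, but the nearest arrays were only 0.07 apart. The difference was -0.11 ± 0.09 (SE), 1.08-fold lower, with a 95% interval of -0.34 to 0.12 and an adjusted p of 0.778 in limma. The other Itga6 probe set had 8.25 and 8.58 in the induced arrays and 8.38 and 8.59 in the controls, so there the groups overlapped, with a difference of -0.07 ± 0.15.

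Itgb4 encodes the beta 4 subunit, whose long cytoplasmic tail recruits plectin. Its log2 values were 7.73 and 8.01 in the induced arrays, against 7.76 and 7.81 in the control arrays. One induced array was below both controls and the other above both. The difference was 0.09 ± 0.13 (SE), with a 95% interval of -0.22 to 0.40 and an adjusted p of 0.889 in limma. Without induced replicate 2 it was -0.05, and without induced replicate 1 it was 0.23.

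Cd151 encodes the tetraspanin that associates with laminin-binding integrins, and 6 probe sets report it. The brightest had log2 values of 9.92 and 10.08 in the induced arrays, against 9.95 and 9.92 in the control arrays, which overlapped, with a difference of 0.06 ± 0.11 (SE) and a 95% interval of -0.20 to 0.32. Of the other 5 probe sets, 4 had differences of 0.11 to 0.20. The dimmest went the other way, at 4.32 and 4.38 in the induced arrays against 4.56 and 4.67 in the controls, a difference of -0.26 ± 0.10 with an adjusted p of 0.471 in limma, at a level just above the filter of 4.17. Several of the brighter ones carry the suffix x, which Affymetrix gives to probe sets that may bind other transcripts.

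Plec encodes plectin, the plakin that links the integrin to keratin filaments, and it had a higher mean in the induced arrays. Its brightest probe set had log2 values of 9.29 and 9.63 in the induced arrays, against 8.95 and 9.13 in the control arrays. The groups did not overlap, and the nearest arrays were 0.16 apart. The difference was 0.42 ± 0.15 (SE), 1.34-fold higher, with a 95% interval of 0.06 to 0.78 and an adjusted p of 0.434 in limma, so it did not pass the threshold.

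Both other Plec probe sets had the same direction with groups that did not overlap. One had 7.42 and 7.74 in the induced arrays against 7.35 and 7.35 in the controls, a difference of 0.23 ± 0.13, and the other had 7.21 and 7.01 in the induced arrays against 6.88 and 6.66 in the controls, a difference of 0.33 ± 0.13. The probe sets differed in which induced array was the higher. Without induced replicate 1 the 3 differences were 0.59, 0.39 and 0.23, and without induced replicate 2 they were 0.25, 0.06 and 0.44, in the order given. A further probe set annotated to Plec together with another gene was left out by the rule.

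Dst encodes the plakin dystonin, whose epithelial isoform is BP230, and its 4 probe sets were split in direction. The brightest had log2 values of 10.15 and 10.01 in the induced arrays, against 9.69 and 9.98 in the control arrays. The next had 9.53 and 9.43 in the induced arrays against 9.16 and 9.42 in the controls. Both were higher in the induced arrays, with gaps between the nearest arrays of only 0.03 and 0.01, and control replicate 1 was the low array in each.

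The remaining 2 Dst probe sets were dimmer and lower in the induced arrays. One had 7.34 and 7.37 in the induced arrays against 7.43 and 7.62 in the controls, and the other had 5.69 and 5.83 in the induced arrays against 5.996 and 5.991 in the controls. The differences of the 4, from the brightest down, were 0.25 ± 0.13, 0.19 ± 0.12, -0.16 ± 0.11 and -0.23 ± 0.10 (SE), with adjusted p values of 0.609, 0.689, 0.694 and 0.537 in limma, and all 4 of the 95% intervals included 0. The 2 brightest were paired with the same RefSeq transcript and the dimmest with a different one, per the platform annotation. None of the tables ties these probe sets to either start site shown above, so the part of isoforms in the split was not tested. Without control replicate 1 the differences of the 2 brightest were 0.10 and 0.06, and with the mean of all 4 probe sets Dst had a difference of 0.01.

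**Figure D2:**
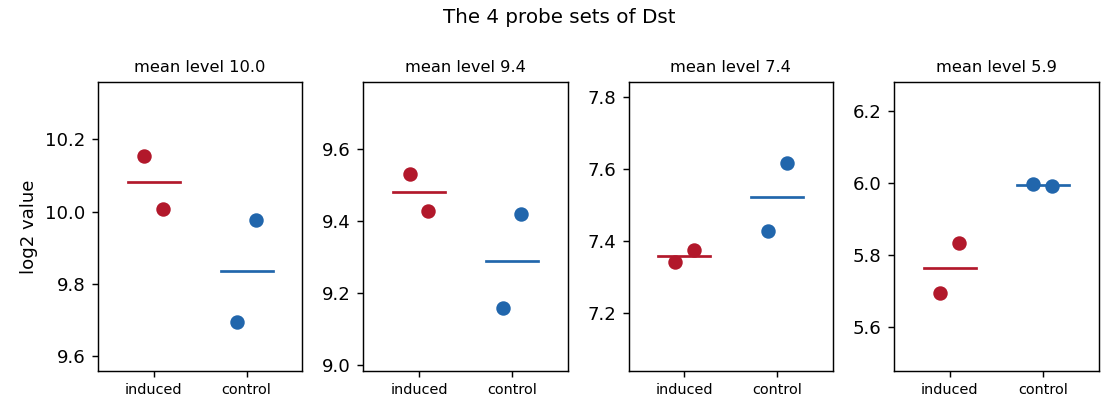
Log2 values of the 4 Dst probe sets on each array (y axis, each panel spanning the same log2 range), titled by the mean level over the 4 arrays, with induced arrays in red on the left, control arrays in blue on the right and bars for group means. The 2 brighter probe sets are higher in the induced arrays by 0.25 and 0.19, and the 2 dimmer ones lower by differences of -0.16 and -0.23.

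Lama5 encodes a laminin chain outside laminin-332, and its values turned on a single array. The brightest probe set had log2 values of 6.74 and 7.20 in the induced arrays, against 6.91 and 6.83 in the control arrays. The second had 6.20 and 6.87 in the induced arrays against 6.26 and 6.34 in the controls. In both, induced replicate 2 was the highest array and induced replicate 1 the lowest.

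The Lama5 differences were 0.10 ± 0.17 and 0.23 ± 0.22 (SE), with adjusted p values of 0.919 and 0.803 in limma. Without induced replicate 1 they were 0.33 and 0.57, and without induced replicate 2 they were -0.13 and -0.10. A dim probe set lay under the filter, at 2.77 and 2.96 in the induced arrays and 2.96 and 2.86 in the controls. Induced replicate 2 was also the highest array in Lamb1, at 7.72 there against 6.56 in induced replicate 1 and 6.70 and 6.80 in the controls. The summed signal of the 3 kept dermal fibroblast markers, Col1a2, Col3a1 and Dcn, was 244 and 454 in the induced arrays and 370 and 354 in the controls, again highest in induced replicate 2. That of the 5 melanocyte markers was also highest in induced replicate 2 and lowest in induced replicate 1. It was 3394 and 5238 in the induced arrays and 3792 and 3983 in the controls. For the 5 kept markers of the outer root sheath and bulge, the mean log2 value had the same extremes. It was 8.24 and 8.89 in the induced arrays and 8.50 and 8.56 in the controls. Their summed signal was 6945 and 7604 in the induced arrays, below the controls at 7703.5 and 7917. That of the 5 immune cell markers went the other way, at 2191 and 1583 induced and 2075 and 1739 control. The part of any of these cell types in the Lama5 values was not tested.

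Counted over the 9 genes by their brightest probe sets, 4 had a lower and 5 a higher mean in the induced arrays, where 50.4% of all genes had a lower mean. The groups did not overlap with the induced arrays lower for 3 of the 9 (19.3% of all genes) and with them higher for 2 of the 9 (20.1% of all genes). The number past an adjusted p of 0.05 in limma was 0 of the 9, as it was 0 of all 13489 genes (0%). At an unadjusted p under 0.05 in limma, 2 of the 9 genes were lower, Col17a1 and Lama3, where 5.23% of all genes were. At the same p 1, Plec, was higher, where 4.4% were. Col17a1 and Lama3 entered the list for their lower values, so counts of lower genes that hold them are no test against these shares. None of the 7 partners was lower at that p. The median difference was 0.06 over the 9 genes and -0.00 over all genes, and 0.09 over the 7 partners of Col17a1 and Lama3. Without induced replicate 1 a lower mean was found for 3 of the 9 genes, and without induced replicate 2 for 7 of the 9.

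Counted over the 21 probe sets, 8 had a lower and 13 a higher mean. The groups were separated with the induced arrays lower for 6 of 21 (18.2% of all probe sets) and higher for 7 of 21 (20.9% of all probe sets). At an unadjusted p under 0.05 in limma, 3 were lower, those of Col17a1 and Lama3 and the dimmest of Cd151, where 4.69% of all probe sets were. At the same p 2, both of Plec, were higher, where 5.41% were. Among the partners only the dimmest Cd151 probe set was lower at that p, since Col17a1 and Lama3 were chosen for their lower values. Without induced replicate 1, 2 were lower (3.3% of all probe sets), again Col17a1 and Lama3, and 3 were higher (4.7% of all probe sets), 2 of Plec and 1 of Lama5. Without induced replicate 2, 12 of the 21 had a lower mean, against 6 without induced replicate 1.

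For the brightest probe sets of the 7 partners, the lower bounds of the 95% intervals ran no lower than -0.34, the value for Itga6, so that each interval lay above the measured differences of both Col17a1 (-0.71) and Lama3 (-0.53). The interval of Lama3 itself, -0.83 to -0.22, overlapped those of Itga6, Lamb3 and Lama5. Dimmer probe sets of the partners reached lower, to -0.43 for Itga6, -0.48 for Dst and -0.51 for Cd151. By the brightest probe sets, the intervals of 6 of the 7 included 0, and that of Plec lay above it. Col17a1 and Lama3 were chosen for their lower values, so the difference between their change and that of the partners is a description and was not tested. With 2 arrays against 2, an exact permutation test of a single gene cannot go below a two-sided p of 0.333.

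**Figure D3:**
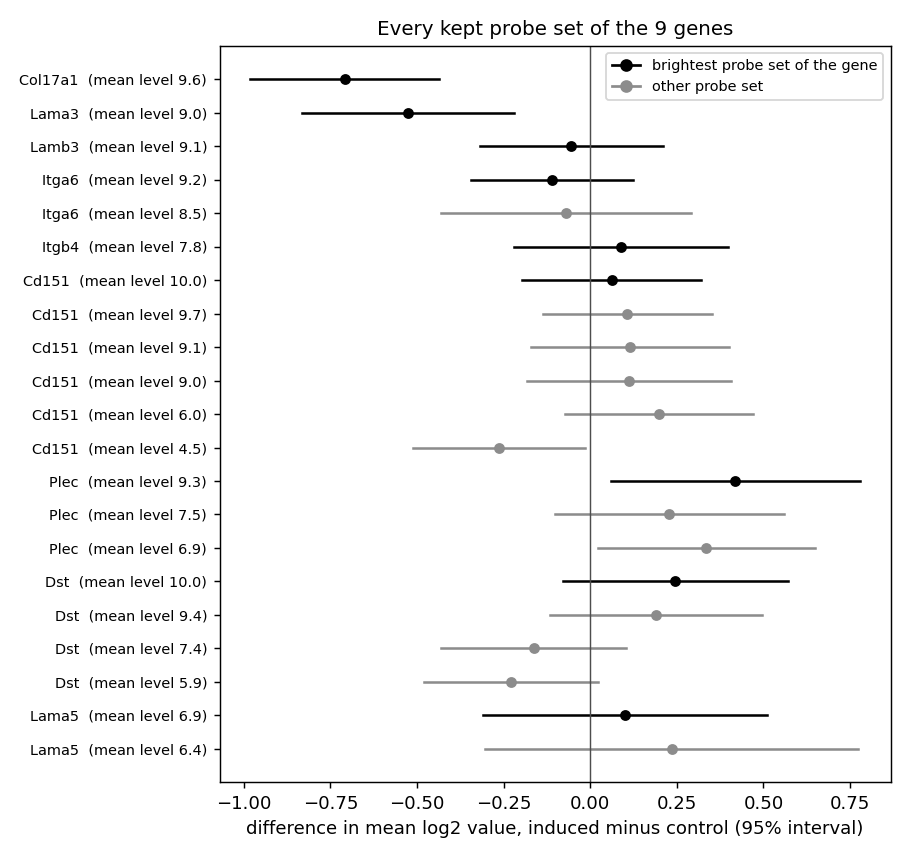
Difference in mean log2 value, induced minus control (x axis), for each of the 21 kept probe sets of the 9 genes, with its 95% interval from limma; black marks the brightest probe set of a gene, grey the others, and the level beside each name is the mean log2 value over the 4 arrays. Col17a1 and Lama3 lie to the left of 0 with their whole intervals, and among the other genes only 2 probe sets of Plec and the dimmest of Cd151 have intervals that exclude 0.

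Leaving out each array in turn kept Col17a1 between -0.80 and -0.61 and Lama3 between -0.65 and -0.40. Plec ranged from 0.25 without induced replicate 2 to 0.59 without induced replicate 1. Itga6 stayed between -0.14 and -0.08. For Lamb3, Itgb4, Cd151 and Lama5 the sign depended on which induced array was left out.

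**Figure D4:**
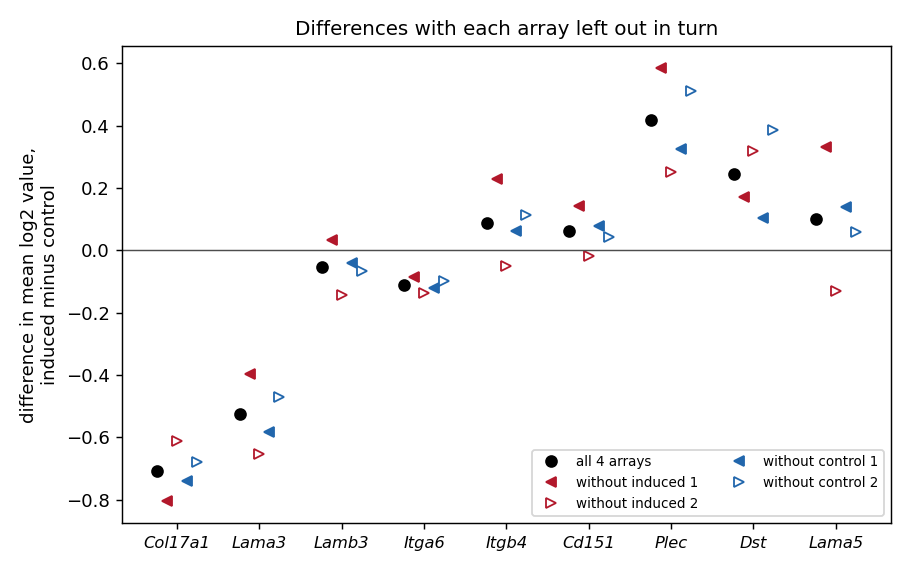
Difference in mean log2 value, induced minus control (y axis), of the brightest probe set of each gene (x axis) with all 4 arrays (black) and with 1 array left out, red where it is an induced array and blue where it is a control array. Col17a1 (-0.80 to -0.61) and Lama3 (-0.65 to -0.40) stay below 0 and Plec (0.25 to 0.59) above it, while Lamb3, Itgb4, Cd151 and Lama5 lie on both sides of 0.

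Other genes of the same adhesion system were read from lists drawn up by function. Among paralogs and linkers of the hemidesmosome proteins, 6 of the 12 genes kept, out of 15 listed, had a lower mean and 0 passed the adjusted threshold, with a median difference of -0.02. Cd81, a tetraspanin related to Cd151, had 9.14 and 9.39 in the induced arrays against 9.84 and 9.73 in the controls, a difference of -0.52 ± 0.13 (adjusted p = 0.291 in limma). The tetraspanin Cd82 differed by 0.20 ± 0.09 in its brighter probe set and by -0.0023 ± 0.11 in the dimmer, the plakin-family gene Eppk1 by 0.35 ± 0.16, and Krt5, a basal keratin to which hemidesmosomes anchor, by -0.17 ± 0.09.

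Of the other laminin chains 5 were kept, in all of which the groups overlapped, and the median difference was 0.05. Over all genes, the groups were separated with the induced arrays lower for 19.3% and higher for 20.1%. Lamc1, the gamma 1 chain, differed by 0.24 ± 0.17 in its brightest probe set and by -0.04 ± 0.12 in the other. Lamb1, the beta 1 chain, differed by 0.39 ± 0.35 in its brightest probe set and by 0.09 ± 0.29 in the other. Lama2, the alpha 2 chain, differed by -0.17 ± 0.13 and Lamc3, the gamma 3 chain, by -0.10 ± 0.20. Lama1 and Lama4 lay under the filter.

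Of 14 other basement membrane genes kept, 5 had a lower and 9 a higher mean, 0 passed the adjusted threshold, and the median difference was 0.09. Frem2, a protein of the Fras1 complex that joins epidermis to dermis in the embryo, had 7.85 and 8.25 in the induced arrays against 7.24 and 7.30 in the controls, a difference of 0.78 ± 0.15 (adjusted p = 0.216 in limma). Col7a1, which forms the anchoring fibrils beneath laminin-332, had 7.56 and 7.40 in the induced arrays against 7.79 and 7.78 in the controls, a difference of -0.31 ± 0.11 (adjusted p = 0.427 in limma). Tinagl1, a basement membrane glycoprotein, differed by -0.47 ± 0.17. Col18a1, which encodes collagen XVIII, differed by -0.28 ± 0.10 in its brightest probe set and by -0.15 ± 0.10 in the other. Groups did not overlap for these 4 genes, which were named for having the largest absolute statistics of the list. Over the 14 genes kept, the induced arrays were separated lower for 3 (19.3% of all genes) and higher for 4 (20.1% of all genes).

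Among 7 other laminin receptors kept, 6 had a higher mean and 0 passed the adjusted threshold, with a median difference of 0.05. Itga3, the integrin alpha 3 subunit that also binds laminin-332, differed by 0.26 ± 0.11 in its brightest probe set and by -0.16 ± 0.10 in its dimmest. Dystroglycan (Dag1) differed by 0.16 ± 0.10 in its brightest probe set and by 0.12 to 0.19 in the others. Syndecan 4 (Sdc4) differed by 0.16 ± 0.11 in its brightest probe set and by 0.22 ± 0.16 in the other. Bcam, a receptor of the alpha 5 chain, differed by -0.14 ± 0.15. Among 9 enzymes that process or shed these proteins, 3 had a lower mean and 0 passed. The brightest probe set of the gelatinase gene Mmp2 had 7.44 and 7.59 in the induced arrays against 7.88 and 8.05 in the controls. Its difference was -0.45 ± 0.11 (adjusted p = 0.308 in limma), and that of the other Mmp2 probe set was -0.23 ± 0.10. Adam17, a sheddase of collagen XVII, differed by 0.22 ± 0.11 in its brightest probe set and by 0.07 ± 0.09 and 0.03 ± 0.10 in the others, Adam9 by 0.12 ± 0.11 and Mmp9 by 0.15 ± 0.11.

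The genes whose 4 array values lay nearest to those of a member, after centring each gene on its own mean, were found by Euclidean distance on the log2 scale over the 4 arrays. Nearest to Col17a1 were Septin2 (distance 0.05), Mrc2 (0.12), Cdan1 (0.13), Car12 (0.15) and Phip (0.15), with differences of -0.69, -0.63, -0.63, -0.58 and -0.57 in that order. Nearest to Lama3 were Kbtbd8 (0.07), Col16a1 (0.08), Sfxn2 (0.09), Fen1 (0.09) and Umps (0.10), with differences of -0.56, -0.46, -0.49, -0.44 and -0.43. With 4 arrays and 13489 genes such near matches are a description of these arrays. Members were left out of the search.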

How the data were processed

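Total RNA of sorted skin cells from each sample was biotin-labelled and hybridised to an Affymetrix mouse array. The authors deposited log2 values made with RMA, per the submitters' processing notes, which give no version. RMA corrects background, quantile normalizes between arrays and summarises probes into probe sets, so a change shared by all transcripts would be removed. The chip definition was not given, and depth has no meaning for arrays.

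Of 45101 probe sets, 64 controls were dropped. Gene names came from the platform annotation, updated through the RefSeq gene table, and 34945 probe sets had 1 gene. Of all 45037 remaining probe sets, with any gene annotation or none, those reaching the 40th percentile of mean log2 value (4.17) were kept. The kept probe sets were tested with limma 3.58.1 in R 4.3.3 (lmFit, eBayes, two-sided, Benjamini-Hochberg over 27022). The fit had 2 residual and 3.82 prior degrees of freedom, so errors rest largely on the spread pooled over probe sets. A gene stands by its brightest kept probe set. Intervals are 95% and unadjusted. The fit was also run on simulated data with planted changes. The share recovered at changes as small as those of Col17a1 and Lama3 is not given here.

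Members, lists, alternatives and naming rules (every member; up to 4 genes per pathway list by absolute statistic; the 5 nearest patterns) were chosen with earlier results of these data known. Replicate numbers 1 and 2 occur in both groups and no label ties them to a litter, so the fit had no block.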

Additional observations from a re-analysis of the deposited data

How the results depend on the processing

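No member passed an adjusted p of 0.05 in limma with no filter, with the filter at the 60th percentile, after a second quantile normalization, after centring on array medians, with the replicate number as a block (replicate block: 0 member probe sets and 0 of all probe sets), or with any 1 array left out. With the trend and robust variance prior 126 probe sets passed, 1 of them a member, that of Col17a1. At an adjusted p under 0.10 no probe set passed with the filter, normalization and prior of the report, while the adjusted p of Col17a1 in limma came to 0.0963 under the stricter 60th percentile filter and to 0.0993 after centring on array medians. Member probe sets lower at an unadjusted p under 0.05 in limma numbered 3 of 21 (4.69% of all probe sets). They numbered 3 of 23 with no filter (3.91%), 3 of 21 after a second quantile normalization (5.3%) and 3 of 21 after centring (4.58%). There were 2 of 20 with the filter at the 60th percentile (5.53%), 2 of 21 with the block (3.62%) and 2 of 21 with the trend and robust prior (4.87%). All of these counts hold Col17a1 and Lama3, chosen for their lower values, so they are no test against the shares beside them. The deviations of same-numbered arrays of the 2 groups correlated at -0.10 over probe sets. With 2 arrays per group this value cannot show whether the numbers mark pairs. They were not taken as pairs because no label ties them to a litter. Under the block Col17a1 had an adjusted p of 0.407 in limma.

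With 1 array left out, all probe sets past the threshold ranged from 0 to 6 and the median over the members from -0.13 without induced replicate 2 to 0.14 without induced replicate 1. Ranges that crossed 0 were -0.14 to 0.033 for Lamb3, -0.050 to 0.23 for Itgb4, -0.018 to 0.14 for Cd151 and -0.13 to 0.33 for Lama5; the cause was not tested. The filters, the variance prior and the block leave the differences themselves unchanged by construction. The lone array left in a group took its spread from the other group. Probe sets near the filter, such as the dimmest of Cd151, carry little signal over background.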
